A study of Caenorhabditis elegans with 11 samples.

Results

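The 73 genes described here carried no public gene name in the deposited tables and were listed as higher after splicing-factor knockdown in both larval strains of the study, N2 and smg-1(r861). They were selected as the rows whose gene description repeats the sequence identifier and whose identifier stands in the higher table of N2 (241 unnamed genes) and in that of smg-1 (200 unnamed genes). The 2 higher tables shared 124 genes, of which these 73 made up 58.9% and 51 had a public name. All 6 tables of the series held 939 different genes. Because the genes were selected by the same knockdown comparisons that are described below, their knockdown values are given as a description, with no test. In the authors' deposited table of either strain no listed gene has an unadjusted P-value above 0.01. Just inside that limit lay Y39B6A.49 (P = 0.0094), irg-6 (P = 0.0093) and T28A11.16 (P = 0.00925) in the authors' deposited table of N2, and R09D1.12 (P = 0.00965), C06E4.3 (P = 0.0089) and T24A6.7 (P = 0.00845) in that of smg-1. Genes just outside the limit were not analysed here.

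Poly(A)-enriched RNA of whole Caenorhabditis elegans was sequenced after feeding bacteria that carry an RNA interference (RNAi) clone. The larval libraries came from N2, the wild type, and from strain TR1331, which carries smg-1(r861), synchronised as L1 larvae, kept on a clone against prp-6, prp-8, prp-31 or gfp for 24 h at 20 °C and labelled as L3. The third strain, SS104 with glp-4(bn2), was raised at 25 °C, fed OP50 bacteria for 72 h and then a gfp, prp-8 or prp-31 clone for 48 h, and is described as 5-day adults, although the library titles say L3. The bn2 allele is known as temperature-sensitive, with few germ cells in adults raised warm, and gfp serves as a control because no transgene is named for these worms. There was 1 library for each strain and clone, 11 in all, so the differences below come without replication.

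Pre-mRNA splicing removes introns through the spliceosome, a machine of small nuclear RNAs (snRNAs) and proteins that assembles on each intron. PRP-8, PRP-6 and PRP-31 belong to the particle in which the U4, U6 and U5 snRNAs enter it, and PRP-8 lies at its catalytic centre. Nonsense-mediated decay removes transcripts with premature stop codons, many of which arise from mis-splicing, and needs the kinase SMG-1, so a smg-1 mutant retains such transcripts. In bulk RNA of whole animals, fewer cells of a type and less RNA per cell cannot be told apart.

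Many of the genes without a name in the tables have one in a later annotation. The RefSeq gene table of assembly WBcel235 held 71 of the 73 genes and gave 25 of them a gene symbol, which is used from here on. All but T04A6.5 and ZC132.4 were matched. By those symbols, 9 genes encode parts or partners of the spliceosome or the exon junction complex, namely isy-1, sluh-7, eif-4A3, gkow-1, snrp-40.1, syf-1, bud-31, bud-13 and snu-66. Another 3 act on snRNAs (usip-1, snpc-1.1 and ints-8), 3 belong to families known for responses to infection (chil-18, pals-32 and irg-6) and 4 encode membrane or transport proteins (clc-11, clc-32, slcr-46.2 and delm-2). The remaining 6 symbols were pid-2, psme-3, cdk-11.2, drd-1, eelo-1 and mbug-1. Of the genes with a sequence name only, 42 were annotated as protein-coding, 3 as pseudogenes (ZK678.3, F40F12.8 and Y39B6A.49) and 1 as a non-coding RNA (W06H8.12). The 51 named genes of the overlap hold further splicing factors, among them plrg-1, prp-38, ddx-23, eftu-2, rsr-2, mog-4, mog-5 and prp-31 itself. The groups were not counted among the other listed genes or in the genome, so no excess of any group is claimed.

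The 73 genes lay on every chromosome, 7 on I, 14 on II, 12 on III, 9 on IV, 23 on V and 8 on X. Chromosome V held 31.5% of them and 31.4% of the named shared genes, beside 25.0% of the annotated protein-coding genes. In 4 places a pair of members were direct neighbours in the annotation, namely drd-1 with F49E12.10, chil-18 with R09D1.12, psme-3 with Y66D12A.8, and clc-11 with clc-32. The library preparation is not stated to keep strand and the related genes clc-11 and clc-32 may share reads, so the values of neighbouring or related members are not fully separate. The deposited intervals differed by strand. Of the 37 annotated members on the minus strand, 35 had an interval that covered under 50% of the gene, in all 35 at its 5′ end, with a median of 9.32% over the minus-strand members. None of the 34 on the plus strand was that short (56.7% to 100%, median 99.9%). Whether this affected the deposited levels was not tested.

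Levels are in FPKM, the fragments of a gene per unit of its length and of the library's size. The labels give reads of 73 bp and a minimum number of reads that is the same for all samples, so the depth behind a single value is unknown. As a check of the labels, prp-31 stood at 40.6 FPKM with the gfp clone and 25.3 with its own clone in N2, and at 31.4 and 24.0 in smg-1. With prp-6 and prp-8 RNAi prp-31 stood at 133 and 144 FPKM in N2 and at 95.3 and 122 in smg-1, so the library of its own clone was the lowest of the 4 in each strain. The levels of the other targets, prp-6 and prp-8, were not analysed here, so those labels were not checked in this way. Ribosomal RNA rrn-2.1, listed only for smg-1 among the larval tables, stood at 4034 FPKM with gfp and at 36295 (prp-6), 34627 (prp-8) and 12191 (prp-31) with the knockdowns, so its listed level was higher in every smg-1 knockdown library than in the control. Its part in the values of the 73 genes was not tested. Of 31 marker genes of muscle, neurons, intestine, hypodermis and germline, 4 were listed in a larval table, rol-6 and sqt-1 as higher and spn-4 as lower in N2, and vit-6 as higher in smg-1. The cuticle collagen genes rol-6 and sqt-1 stood at 138 and 170 FPKM with gfp and at 1236 and 1372 with prp-6 RNAi in N2, and their part in the N2 values was not tested. Since the tables hold selected genes only, the level of the other markers, and with it the labelled stage and tissue, could not be checked.

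The same order of the clones ran through nearly all of the 73 genes. A fold here is the ratio of knockdown FPKM + 1 to gfp FPKM + 1, which understates the difference of genes with low levels. The median log2 fold over the 73 genes with the prp-6 clone was 1.24 in N2 and 1.07 in smg-1. Under prp-8 RNAi it was 1.93 and 1.88, and under prp-31 RNAi 0.50 and 0.43. The 51 named shared genes gave medians of 1.41, 1.90 and 0.46 in N2 and 1.15, 1.73 and 0.38 in smg-1, close to those of the unnamed genes with each clone. Leaving out 2 genes that are listed at 0 in a knockdown library, 61 of 71 were above gfp in all 6 knockdown libraries, beside 86% of the shared genes without such a 0.

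With prp-8 RNAi, 70 of the 73 genes were at least 2-fold above gfp in N2, where the whole higher table had 42.3%, and 69 in smg-1, where it had 85.3%. With prp-6 RNAi the numbers were 50 in N2 (83.9% of the table) and 44 in smg-1 (41% of the table). Only 5 genes reached a 2-fold difference with prp-31 RNAi in N2 (28.9% of the table), namely F15D4.5, F19B10.13, drd-1, T04A6.5 and ZK84.1, and 2 in smg-1 (6.65% of the table), F19B10.13 and T04A6.5. The prp-8 library had the highest fold for 67 genes in each strain, or 91.8%, beside 37.9% of the N2 table and 89% of the smg-1 table. Among genes with no knockdown library of the strain listed at 0, the full order prp-8, prp-6, prp-31 held for 65 of 72 genes in N2 (36% of the table) and for 62 of 71 in smg-1 (83.2% of the table). It also held for 44 of 50 named shared genes in N2 and 45 of 51 in smg-1. The N2 table as a whole was led by prp-6 and its overlap with the smg-1 table by prp-8, and nothing is read from that gap because the overlap itself selected the members. Of the 51 named shared genes, 45 in N2 and 46 in smg-1 also had their highest fold with prp-8.

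**Figure D1:**
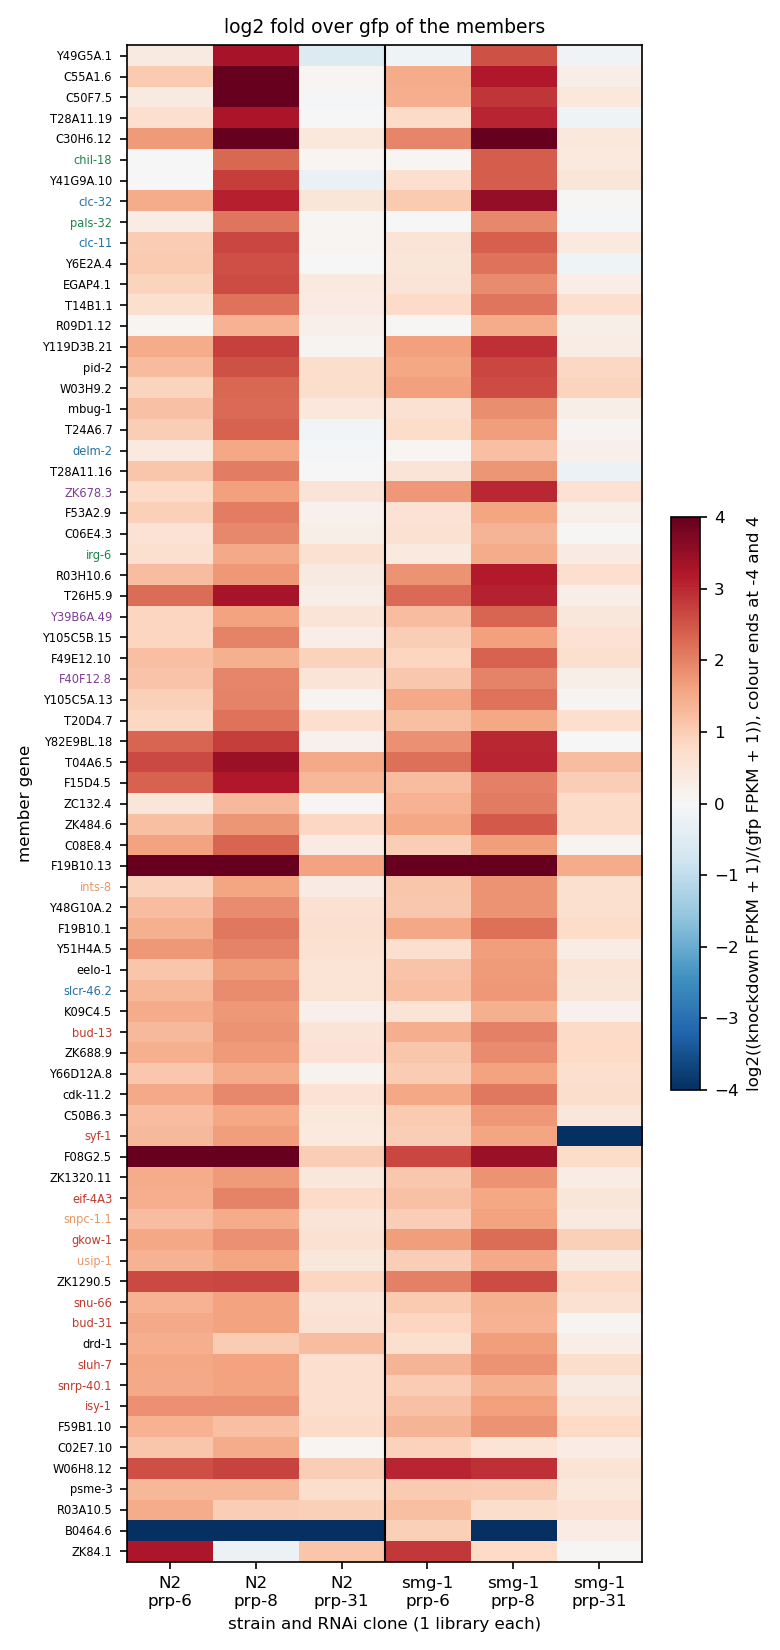
Heat map of the log2 fold over gfp, from FPKM + 1, of the 73 genes (rows, names coloured by annotation group) in the 6 larval knockdown libraries (columns), with W06H8.12 in both strains, R09D1.12 and ZK678.3 in N2 and C02E7.10 in smg-1 drawn against a gfp level listed at 0. The prp-8 column holds the highest fold for 67 genes in each strain and the prp-31 columns are mostly the palest. The colour scale is capped, so the largest folds look alike. The dark blue cells of B0464.6 and syf-1 are libraries in which the gene is listed at 0.

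The splicing genes had folds near each other with each clone in N2, and spread more in smg-1. Over the 9 genes the log2 fold in N2 ran from 1.28 to 1.83 with prp-6 RNAi (median 1.5), from 1.6 to 1.97 with prp-8 (median 1.68) and from 0.40 to 0.76 with prp-31 (median 0.61). In smg-1 it ran from 0.87 to 1.67 with prp-6 (median 1.17) and from 1.38 to 2.23 with prp-8 (median 1.57). With prp-31 RNAi in smg-1 it ran from 0.12 to 0.95 (median 0.58) over 8 genes, since syf-1 is listed at 0 in that library. Apart from that 0, all 9 genes showed the same order of the clones, at control levels of 13.5 to 30.5 FPKM in N2 (median 26.0), above the median of 4.11 for the other 64 genes. The group was formed from gene symbols after the values had been seen, and leaves out the splicing factors among the named shared genes. A small spread was not particular to it: the 6 genes with other symbols ran from 1.12 to 1.51 with prp-6 in N2.

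Levels of single splicing genes are given for each strain in 1 fixed order: gfp, then prp-6, prp-8, prp-31. The gene snu-66, whose yeast and human homologues are proteins of the tri-snRNP, stood at 30.5, 81.2, 95.2 and 43.5 FPKM in N2 and at 34.3, 71.5, 94.6 and 52.6 in smg-1 (deposited interval on chromosome V, 7575518 to 7575674, minus strand, genome build not given in the sources used here). The U5 snRNP protein gene snrp-40.1 stood at 20.9, 61.5, 65.5 and 33.7 FPKM in N2 and at 21.6, 44.4, 59.1 and 28.0 in smg-1. In both genes the gfp library was the lowest of each strain and the prp-31 library the next.

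Among factors that join the spliceosome around catalysis, isy-1, the homologue of yeast Isy1, stood at 26.0, 94.7, 95.3 and 42.4 FPKM in N2 and at 24.9, 57.3, 79.4 and 37.1 in smg-1. In N2 its prp-6 and prp-8 values were nearly equal, and in smg-1 prp-8 was the higher. For sluh-7, the homologue of yeast Slu7, which acts in the second step of splicing, the levels were 22.2, 66.4, 69.6 and 36.1 FPKM in N2 and 16.4, 43.4, 59.1 and 27.6 in smg-1. The homologue of the human G-patch protein GPKOW, gkow-1, stood at 17.4, 52.5, 63.6 and 27.0 FPKM in N2 and at 12.0, 40.4, 60.1 and 24.2 in smg-1. It had the largest folds of the group in smg-1, with log2 values of 1.67, 2.23 and 0.95.

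The scaffold protein gene syf-1 stood at 26.8, 67.0, 88.1 and 35.9 FPKM in N2 and at 26.2, 52.9 and 79.8 FPKM in the first 3 libraries of smg-1. It is listed at 0 with prp-31 in smg-1, although the authors' deposited table gives the pooled smg-1 knockdowns 85.9 FPKM. The gfp control of that comparison has 35.0 FPKM in the authors' deposited table, against 26.2 for the single gfp library, so the scales differ. The listed 0 of syf-1 is not read as a level. The genes bud-31 and bud-13, named for yeast spliceosome proteins, the latter a part of the RES complex in yeast, differed in level: bud-31 stood at 28.3, 81.9, 88.3 and 43.6 FPKM in N2 and at 31.1, 57.6, 82.5 and 33.9 in smg-1. For bud-13 the levels were 13.5, 34.4, 49.5 and 19.9 FPKM in N2 and 10.1, 29.6, 43.7 and 17.8 in smg-1. The helicase gene eif-4A3, the core of the exon junction complex that marks spliced transcripts, stood at 28.1, 78.6, 113 and 48.4 FPKM in N2 and at 30.5, 69.6, 90.2 and 42.7 in smg-1. Every knockdown library of these genes was above its gfp library, except for the 0 of syf-1.

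**Figure D2:**
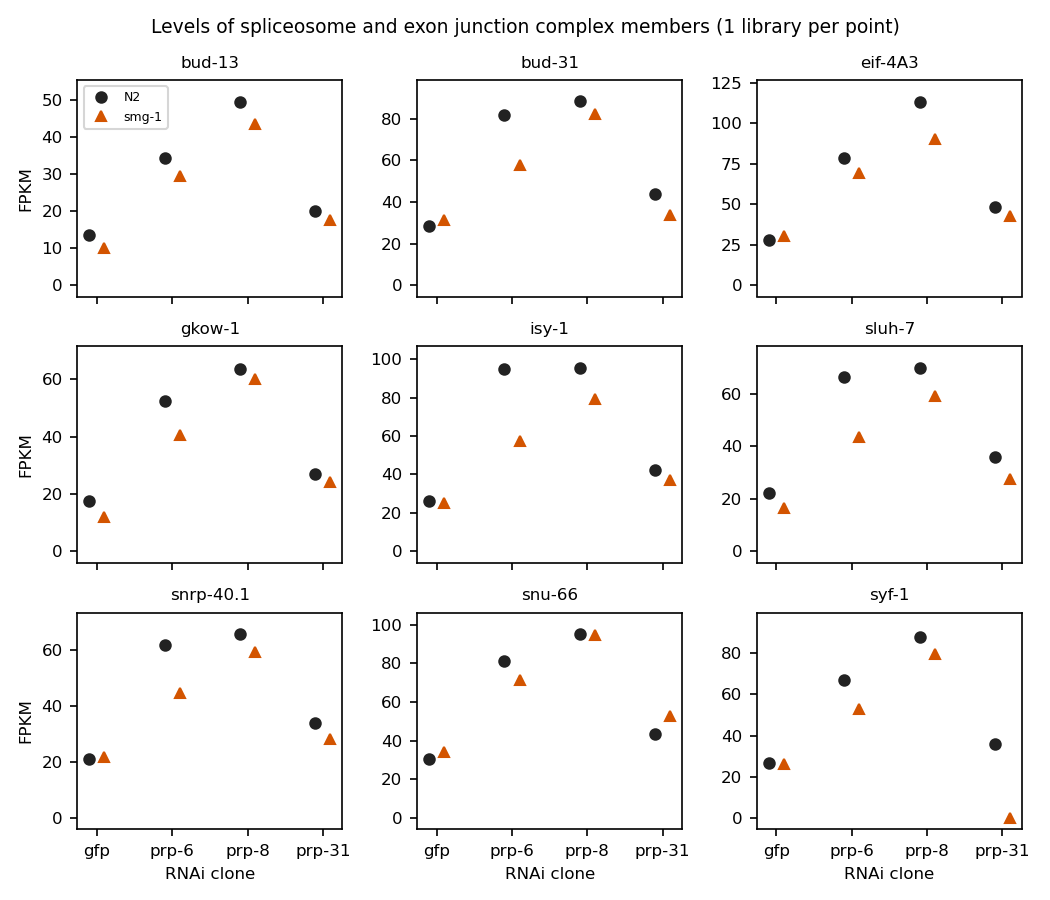
FPKM (linear axes that include 0, 1 panel per gene) of the 9 spliceosome and exon junction complex genes with RNAi against gfp, prp-6, prp-8 or prp-31 in N2 and smg-1, each point being 1 library. The points are lowest with gfp, higher with prp-31 and highest with prp-8, and the smg-1 prp-31 value of syf-1 is a listed 0.

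The genes that act on snRNAs had similar folds. For usip-1, a nucleotidyltransferase that acts on U6 snRNA, the level was 17.0, 46.1, 52.7 and 23.8 FPKM in N2 and 17.1, 34.7, 50.8 and 22.0 in smg-1, again in that order. The gene snpc-1.1, a subunit of the complex that starts snRNA transcription, stood at 9.88, 24.6, 29.5 and 14.6 FPKM in N2 and at 9.70, 20.2, 31.8 and 12.8 in smg-1. A subunit of Integrator, which cuts the 3′ end of snRNAs in animals, is encoded by ints-8, with 4.90, 10.1, 16.8 and 6.33 FPKM in N2 and 4.01, 9.81, 16.5 and 6.75 in smg-1. The prp-8 library was the highest for all 3 genes in both strains, with log2 folds of 1.49 to 1.59 in N2 and 1.52 to 1.80 in smg-1. The kinase gene cdk-11.2, of the CDK11 family, had 4.52, 14.7, 20.1 and 7.30 FPKM in N2 and 3.80, 13, 19.8 and 6.77 in smg-1, and its log2 folds with prp-8 of 1.93 and 2.11 exceeded those of the 3 genes.

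Among the other genes with a symbol, pid-2, a factor of piRNA-guided silencing in the worm germline, stood at 4.12, 11.2, 29.1 and 7.39 FPKM in N2 and at 3.30, 11.5, 26.5 and 6.72 in smg-1. Its prp-8 level was the highest of each strain. By contrast psme-3, a homologue of a proteasome activator, had nearly the same level with prp-6 and prp-8, at 56.3, 145, 142 and 92.7 FPKM in N2 and 51.5, 107, 106 and 69.0 in smg-1. The gene drd-1 reversed its order between strains, with 13.3, 37.8, 27.9 and 32.3 FPKM in N2, where prp-8 was the lowest of the knockdowns, and 14.5, 23.4, 48.3 and 17.6 in smg-1, where it was the highest. For eelo-1 the levels were 8.97, 20.7, 31.2 and 13.4 FPKM in N2 and 7.87, 18.7, 28.1 and 12.1 in smg-1, so its folds hardly differed between the strains.

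The largest differences belonged to genes known by a sequence name only. F19B10.13, whose deposited interval lies on chromosome II from 3662258 to 3662986, stood at 2.22, 77.1, 115 and 8.85 FPKM in N2 and at 2.61, 55.9, 99.0 and 9.14 in smg-1. This was a log2 fold of 4.60, 5.17 and 1.61 in N2 and of 3.98, 4.79 and 1.49 in smg-1, and its smallest fold was the largest among the 73 genes. T04A6.5 stood at 5.33, 38.8, 67.9 and 17.1 FPKM in N2 and at 11.9, 58.1, 105 and 29.6 in smg-1. These were the only 2 genes at least 2-fold above gfp with every clone in both strains, a count that was not made over the named shared genes. In N2 alone, 4 genes met that limit (2.69% of the table), with F15D4.5 and drd-1 added, and in smg-1 no further gene did (4.62% of the table). F15D4.5 was just short of it, at 1.99-fold with prp-31 in smg-1. The counts within each strain moved with the pseudocount, as given at the end.

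F08G2.5 had a far higher level, at 43.7, 717, 818 and 87.5 FPKM in N2 and 78.4, 505, 863 and 132 in smg-1. Its log2 fold with prp-6 was 4.01 in N2 and 2.67 in smg-1, and with prp-8 it was 4.20 and 3.44. F15D4.5 stood at 0.789, 8.20, 15.3 and 3.47 FPKM in N2 and at 3.92, 10.5, 18.7 and 8.78 in smg-1. Knockdown levels of F15D4.5 were higher in smg-1, while its folds were lower there because its gfp level was higher. ZK1290.5 stood at 4.1, 30.8, 31.7 and 8.26 FPKM in N2 and at 3.93, 18.9, 29.0 and 7.44 in smg-1, with prp-6 close to prp-8 in N2 and below it in smg-1.

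The non-coding RNA gene W06H8.12 was listed at 0 with gfp in both strains, and in the 3 knockdown libraries, in the same order, at 5.03, 5.58 and 0.964 FPKM in N2 and at 7.20, 6.56 and 0.460 in smg-1. No fold of W06H8.12 is printed because its gfp level is a listed 0. The counts and medians of folds do include it, and the other genes with a gfp level listed at 0, on the FPKM + 1 scale. In smg-1 the prp-6 value of W06H8.12 was the highest. Smaller differences, largest with prp-8, were seen for ZK484.6 (0.458, 2.32, 3.92 and 1.57 FPKM in N2, and 1.63, 6.60, 13.2 and 3.50 in smg-1) and W03H9.2 (1.21, 3.11, 9.82 and 2.61 FPKM in N2, and 2.57, 10.2, 20.6 and 5.57 in smg-1). F59B1.10 had 1.42, 5.36, 4.56 and 3.10 FPKM in N2 and 1.21, 4.67, 6.66 and 2.86 in smg-1, so prp-6 was the highest in N2 and prp-8 in smg-1. In these 3 genes every knockdown library was above gfp.

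A set of genes was high with prp-8 RNAi and much less so with prp-6. The prp-8 fold was over 2 times the prp-6 fold for 26 genes in N2 (12% of the table) and 27 in smg-1 (25.1% of the table), and for 19 in both strains, or 26.0%, beside 23.4% of all 124 shared genes. These 19 held none of the 9 splicing genes, 7 genes with a symbol (chil-18, pals-32, clc-11, clc-32, delm-2, mbug-1 and pid-2) and 12 with a sequence name only. The log2 fold with prp-8 exceeded that with prp-6 by 0.01 to 0.52 in the splicing group in N2 (median 0.23) and by 0.37 to 0.58 in smg-1 (median 0.46). Outside that group the median of this difference was 0.80 in N2 and 0.88 in smg-1.

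Of the infection-response families, chil-18 and pals-32 stood apart from gfp mainly with prp-8. For chil-18, of the chitinase-like family, the level was 0.397, 0.407, 5.82 and 0.459 FPKM in N2 and 0.640, 0.719, 7.78 and 1.16 in smg-1. Likewise pals-32, of a family with many members induced by intracellular pathogens, stood at 0.480, 0.822, 5.49 and 0.532 FPKM in N2 and at 1.30, 1.26, 7.72 and 1.23 in smg-1. The prp-8 library stood alone for both genes. For irg-6, an infection response gene by its name, the levels were 0.549, 1.43, 3.42 and 1.38 FPKM in N2 and 0.593, 1.09, 3.43 and 0.995 in smg-1, so all of its knockdown libraries were above gfp.

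The claudin-like genes clc-11 and clc-32, of a family of membrane proteins at cell junctions, are neighbours and both were highest with prp-8. The gene clc-11 stood at 6.55, 14.4, 47.5 and 6.97 FPKM in N2 and at 10.8, 15.9, 61.3 and 14.6 in smg-1. At a lower level clc-32 stood at 0.578, 3.41, 12.7 and 1.23 FPKM in N2 and at 1.27, 3.73, 25.2 and 1.33 in smg-1. In neither strain did prp-31 bring clc-11 to 2-fold above gfp. The degenerin-like channel gene delm-2 was the least abundant of the group, at 0.165, 0.523, 2.38 and 0.114 FPKM in N2 and 0.338, 0.398, 2.06 and 0.552 in smg-1. The gene slcr-46.2, at least 2-fold above gfp with prp-6 and prp-8 in both strains, had 2.25, 7.12, 11.1 and 3.75 FPKM in N2 and 2.41, 6.94, 10.4 and 3.75 in smg-1.

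The widest gaps between the 2 clones were in sequence-named genes. C55A1.6 (deposited interval chromosome V, 15648069 to 15648804) stood at 2.74, 6.78, 105 and 2.97 FPKM in N2 and at 3.87, 12.5, 43.7 and 4.81 in smg-1, so its prp-8 level was lower and its prp-6 level higher in smg-1 than in N2. Y49G5A.1 had 2.88, 3.94, 37.2 and 1.64 FPKM in N2 and 7.45, 6.49, 47.9 and 6.73 in smg-1, below gfp with prp-31 in both strains and with prp-6 in smg-1. C30H6.12 had 0.922, 5.24, 31.6 and 1.56 FPKM in N2 and 1.04, 6.97, 39.0 and 1.75 in smg-1. Its values were alike in the 2 strains.

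T28A11.19 had 0.836, 1.92, 16.7 and 0.801 FPKM in N2 and 3.12, 6.01, 32.9 and 2.70 in smg-1. Y119D3B.21 had the highest level of all 73 genes, with 1079, 3001, 7187 and 1176 FPKM in N2 and 748, 2354, 5662 and 913 in smg-1. With prp-31 it was within 0.29 of gfp on the log2 scale in both strains. Leaving out genes with a knockdown library of the strain listed at 0, the prp-31 level was at or below gfp for 7 of 72 genes in N2 (3.95% of the table) and for 5 of 71 in smg-1 (5.31% of the table).

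**Figure D3:**
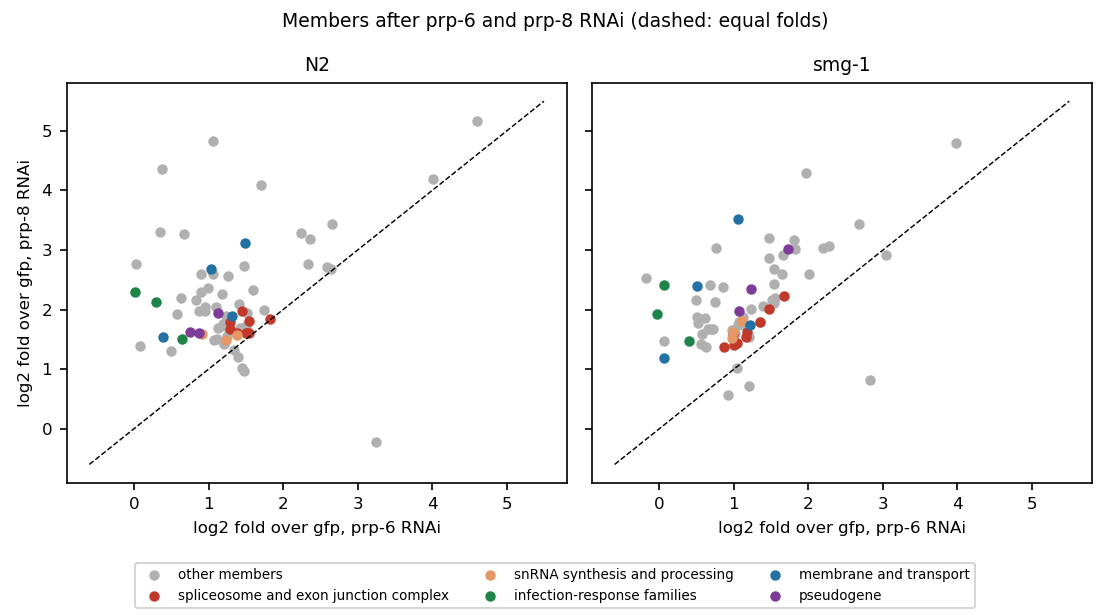
Log2 fold over gfp with prp-6 RNAi (x axis) against that with prp-8 RNAi (y axis) in N2 and smg-1, 1 point per gene coloured by annotation group, without B0464.6, which is listed at 0 in prp-8 libraries. Splicing genes lie just above the dashed line of equal folds, chil-18 and pals-32 (green) lie at the left with prp-6 folds near 0, and ZK84.1 lies far below the line.

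The opposite order was rare among the shared genes, named or not. Counting B0464.6, the highest fold was with prp-6 for 6 of the 73 genes in each strain. In N2 the 3 folds of B0464.6 are equal, since its knockdown libraries are all listed at 0, and this tie was counted under prp-6. The highest fold was with prp-6 for 5 of the 51 named shared genes in each strain, 61.4% of the N2 table and 10.4% of the smg-1 table. In both strains R03A10.5, psme-3 and ZK84.1 had a higher fold with prp-6 than with prp-8. ZK84.1 (deposited interval chromosome II, 6020653 to 6023349) stood at 13.3, 135, 11.2 and 29.6 FPKM in N2 and at 17.8, 132, 32 and 18.4 in smg-1, and prp-6 was its only clone over 2-fold in both strains. R03A10.5 stood at 4.03, 13, 8.86 and 8.82 FPKM in N2 and at 3.72, 9.86, 6.74 and 6.09 in smg-1. Among genes with no 0 in a library of the strain, ZK84.1 and R03A10.5 were the only 2 of 69 under 2-fold with prp-8, in N2 and in smg-1 alike. Of the named shared genes without such a 0, 3 of 50 in N2 and 5 of 51 in smg-1 were under 2-fold. B0464.6 is listed at 0 in all 3 knockdown libraries of N2 against 22.2 FPKM with gfp, and stood at 21.1, 42.1, 0 and 26.1 FPKM in smg-1. The authors' deposited table gives its pooled knockdowns as 64.6 FPKM in N2 and 32.4 in smg-1, so its listed zeros are not read as levels.

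In the median over the 73 genes, the folds of the 2 larval strains were close. Every gene had been selected as higher in both strains, which limits how far its folds could differ. The N2 and smg-1 tables were normalised separately, so levels set across them carry that limit. The median of the smg-1 log2 fold minus the N2 log2 fold over the 73 genes was −0.19 with the prp-6 clone, and −0.08 and −0.01 with the other clones in turn. The named shared genes gave −0.19, −0.08 and −0.05. Gene by gene, the difference with prp-8 ran from −1.63 to 1.45. A larger fold in smg-1 than in N2 was found for 28 of 73 genes with prp-6 (33.1% of all 124 shared genes), 33 with prp-8 (42.7%) and 36 with prp-31 (47.6%). Listed zeros enter these counts: B0464.6 is counted as larger in smg-1 with each clone, and syf-1 as smaller with prp-31. With 1 library per strain and clone, there are no replicates to set these differences against.

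Single genes moved further. Among genes without a listed 0, ZC132.4 and R03H10.6 had the largest mean fold difference in favour of smg-1. R03H10.6 stood at 1.07, 3.85, 5.85 and 1.67 FPKM in N2 and at 1.32, 7.10, 20.0 and 2.74 in smg-1, a log2 fold with prp-8 of 1.72 and 3.17. ZC132.4 stood at 0.421, 1.01, 2.52 and 0.467 FPKM in N2 and at 1.53, 5.62, 9.59 and 3.32 in smg-1, higher in smg-1 with every clone. On the other side, Y51H4A.5 had 1.58, 7.66, 9.23 and 2.97 FPKM in N2 and 1.95, 3.75, 8.36 and 2.60 in smg-1, and its log2 fold with prp-6 was 1.75 in N2 and 0.69 in smg-1. C08E8.4, at 23.9, 74.6, 124 and 30.4 FPKM in N2 and 33.7, 67.3, 109 and 36.6 in smg-1, combined a higher control level with lower prp-6 and prp-8 levels in smg-1. F08G2.5 and F15D4.5, whose levels are given above, also had lower folds in smg-1, by 0.78 and 0.88 in the mean over the clones on the log2 scale.

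On the FPKM + 1 scale, control levels differed little for most genes. The median log2 ratio of smg-1 to N2 in the gfp libraries was 0.11 over the 73 genes and 0.02 over the named shared genes. The gfp level was higher in smg-1 for 45 of 73 genes (61.6%, beside 58.9% of all shared genes). It was at least 2-fold higher, on the FPKM + 1 scale, for 7 genes (9.59%, beside 8.87% of the shared genes), namely Y39B6A.49, F15D4.5, F40F12.8, T28A11.19, Y49G5A.1, Y6E2A.4 and T04A6.5, and at least 2-fold lower for 0. That scale understates differences at low levels. The plain FPKM ratio was 3.64 for ZC132.4 and 3.56 for ZK484.6, which are not among the 7, and more genes passed with a smaller pseudocount, as given at the end. Genes with the largest decrease in smg-1 were Y119D3B.21 with 1079 against 748 FPKM, T20D4.7 with 6.19 against 4.02, gkow-1 with 17.4 against 12.0, Y66D12A.8 with 26.9 against 19.2 and sluh-7 with 22.2 against 16.4.

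All 3 pseudogenes were higher in smg-1 than in N2 with each of the 4 clones, ZK678.3 with an N2 gfp level listed at 0. Y39B6A.49, on chromosome V from 19094939 to 19096900, stood at 2.76, 5.88, 10.4 and 4.34 FPKM in N2 and at 19.9, 47.9, 105 and 27.5 in smg-1, a ratio of FPKM of 7.20, 8.15, 10 and 6.35. F40F12.8 stood at 1.55, 4.56, 8.84 and 2.66 FPKM in N2 and at 5.63, 12.9, 25.1 and 6.83 in smg-1, a ratio of 3.64, 2.84, 2.84 and 2.56. ZK678.3 stood at 0.687, 2.09 and 0.433 FPKM in the 3 knockdown libraries of N2 and at 0.602, 4.29, 12.0 and 1.39 FPKM in smg-1. In both strains the knockdown levels of the pseudogenes were above gfp. In all, 20 of the 73 genes (27.4%, beside 25% of the shared genes) were higher in smg-1 with all 4 clones, and 17 of the 71 genes without a 0 in a knockdown library were lower with all 4 (28.1% of such shared genes), among them isy-1, sluh-7, bud-13, gkow-1, cdk-11.2, psme-3 and eelo-1. Of the named shared genes, 11 of 51 were higher with all 4, and 17 of the 50 without such a 0 were lower.

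**Figure D4:**
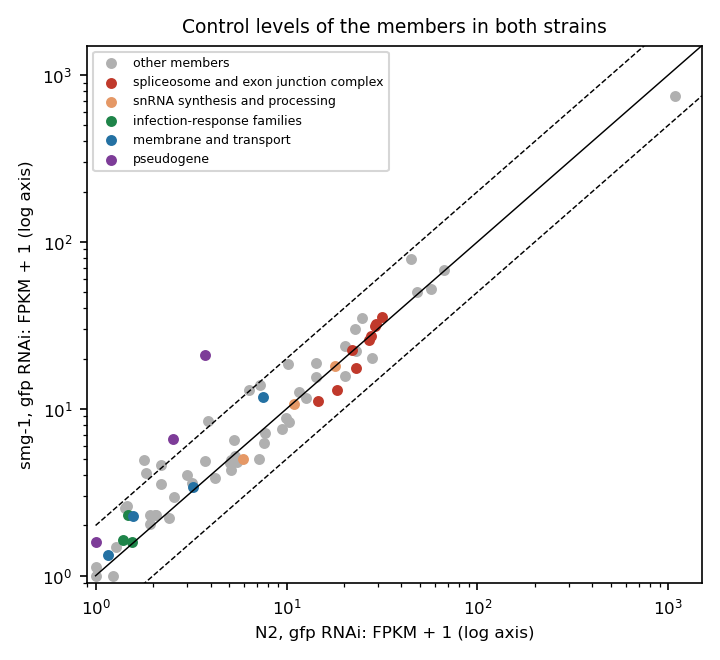
FPKM + 1 of the 73 genes in the gfp libraries of N2 (x axis) and smg-1 (y axis), both on a log scale, 1 point per gene, with dashed lines at a 2-fold difference. Most genes lie between the lines, and Y39B6A.49, with 2.76 and 19.9 FPKM, is among those above the upper one.

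The authors' own test gave a low q-value to fewer of these genes in N2 than in smg-1, as it did over the whole tables. In the authors' deposited table, 8 of the 73 genes had a q-value under 0.05 in N2, beside 8.31% of that table, and 47 in smg-1, beside 37.6% of that table. The 8 genes of N2 were also below 0.05 in the authors' deposited table of smg-1, namely C50F7.5, F08G2.5, F15D4.5, F19B10.13, T26H5.9, W06H8.12, Y82E9BL.18 and ZK1290.5. None of these 8 has a gene symbol, where 25 of the 73 genes have one, and 7 are annotated as protein-coding. The number below 0.05 in both strains was not counted over the named shared genes.

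Of the 73 genes, 2 were also in the higher table of the adult glp-4(bn2) strain, C50F7.5 and mbug-1, 0 were in its lower table, and 0 of the 51 named shared genes were in its higher table. C50F7.5, on chromosome IV from 7726718 to 7727951, stood at 21.7, 28.3, 466 and 20.9 FPKM in N2 and at 28.9, 81.8, 216 and 39.3 in smg-1. In glp-4(bn2) its control level was 121 FPKM, the prp-8 level 308 and the prp-31 level 183, folds of 2.52 and 1.5. Its prp-31 level was above gfp in the adults and in smg-1, and slightly below gfp in N2. For mbug-1, on chromosome IV from 12973636 to 12975597, the levels were 47.1, 108, 230 and 62.8 FPKM in N2, 49.1, 75.5, 180 and 57.9 in smg-1, and in glp-4(bn2) 127 with gfp, 461 for prp-8 and 127 for prp-31. Its fold with prp-8 in the adults was 3.61, and with prp-31 it was 1.0. Both genes have a q-value of 0.0495 in the authors' deposited table of that strain, and both belong to the set with a prp-8 fold over 2 times the prp-6 fold. In these adults rrn-2.1 stood at 397 FPKM in the control, 102770 after prp-8 and 3716 after prp-31 RNAi, and its part in these folds was not tested. Of the 10 germline markers, 5 (rme-2, egg-1, puf-5, oma-1 and spn-4) were listed as lower in glp-4(bn2), so germline transcripts were measured in these adults. They stood at 13.7 to 41.1 FPKM in the control, 1.79 to 5.19 after prp-8 and 11.2 to 28.8 after prp-31 RNAi, so they were lowest where C50F7.5 and mbug-1 were highest, and their part in these folds was not tested either.

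**Figure D5:**
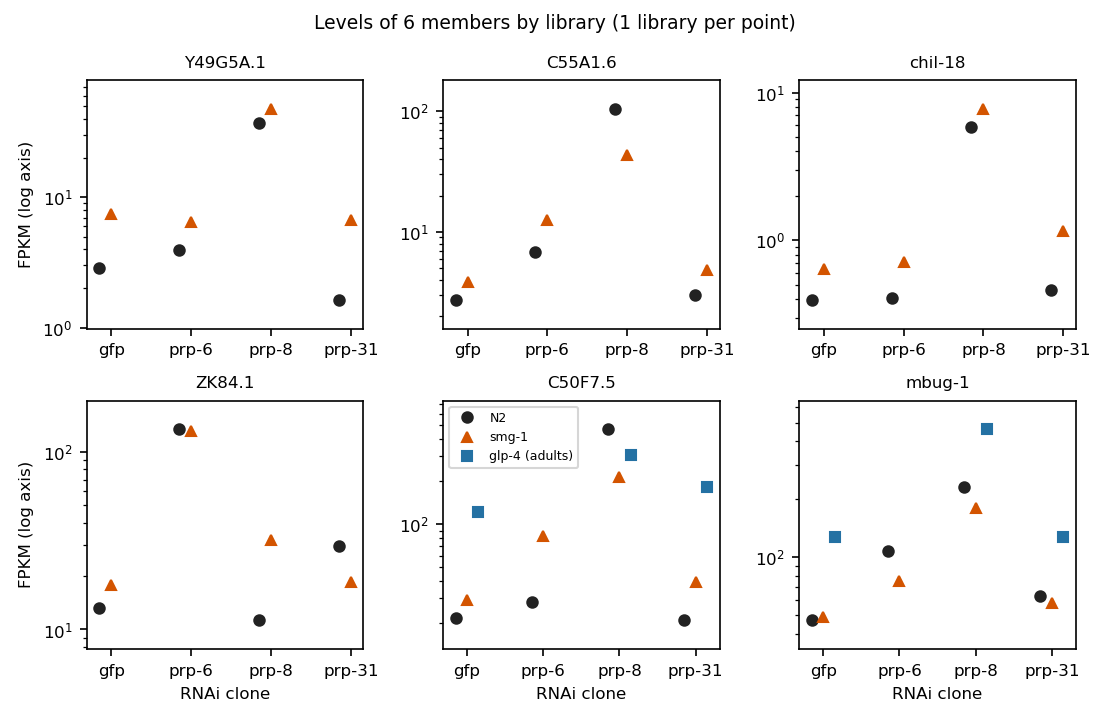
FPKM (log axis) of Y49G5A.1, C55A1.6, chil-18, ZK84.1, C50F7.5 and mbug-1 in each library, with the RNAi clones along the x axis and 1 symbol per strain. The prp-8 libraries stand highest for all but ZK84.1, whose prp-6 libraries are at 135 FPKM in N2 and 132 in smg-1.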

How the data were processed

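Poly(A)-enriched RNA of 11 libraries was measured, 1 per strain and RNAi clone, grouped by the labels. The deposited tables hold selected genes only. The tools Cufflinks and Cuffdiff are named in the submitters' processing notes. Tool versions, genome build, aligner and gene models were not given in the sources used here. The file headers name, beside FPKM of single libraries, the authors' pooled FPKM, their log2 fold change and the deposited P-value and q-value. The deposited test statistic (a score) was left out.

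Members were the rows whose description equals the identifier and which stand in the higher tables of N2 and smg-1. The members and lists were chosen with earlier results of these data known, and the annotation groups were formed from RefSeq symbols (WBcel235) after the values were seen. From the FPKM, log2((knockdown + 1)/(gfp + 1)) was computed, with a pseudocount of 1 FPKM. No test was made, because each group has 1 library, the members were chosen by the same comparisons and the tables hold selected genes only. The depth per library is unknown, so no counting interval is given. Fold counts used a limit of 2 and the authors' q-value a limit of 0.05. Single genes were named by rule: those in a glp-4 table, then the largest smallest folds, the extreme strain differences in fold and in gfp level, the extreme differences between prp-8 and prp-6, the highest levels, listed zeros and the largest deposited P-values. Genes with a symbol were added after their values were seen. Counts that leave out genes listed at 0 were set up after the values were seen. Alternatives changed the pseudocount, the minimum mean FPKM, the treatment of listed zeros, the centring and the clones used. Promoter and protein sequences were not used here. The code ran on Python 3.11.15 with pandas 2.3.3, numpy 2.4.6 and, for plots, matplotlib 3.10.9. Its fold formula was run on simulated data built with the same formula, so that run could not test the selection, the groups or the counts.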

Additional observations from a re-analysis of the deposited data

How the results depend on the processing

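No paired analysis by replicate number was possible because each strain and clone has 1 library and the titles carry no numbers. A fit with the strain as a block over the shared clones was not run. With a pseudocount of 10 FPKM the median log2 fold was 0.59 with prp-6 and 1.15 with prp-8 in N2 and 1.17 with prp-8 in smg-1, the number of genes at least 2-fold above gfp with every clone was 0 in each strain, 1 gene had a gfp level at least 2-fold higher in smg-1, and 10 had a prp-8 fold over 2 times the prp-6 fold in both strains. The median smg-1 minus N2 difference with prp-31 turned to 0.000547. With a pseudocount of 0.1 FPKM, 12 genes in N2 and 12 in smg-1 were at least 2-fold above gfp with every clone, and 15 had a gfp level at least 2-fold higher in smg-1. Leaving out the genes with a listed 0 (67 remained) gave 3 genes with their highest fold with prp-6 in smg-1, instead of 6. Centred on the named shared genes, the median smg-1 minus N2 difference turned to 0.00682 with prp-8 and 0.041 with prp-31. Leaving out 1 clone at a time, the number of genes at least 2-fold above gfp with every remaining clone ran from 4 to 48 in N2 and from 2 to 42 in smg-1, 4 and 2 without prp-6, 5 and 2 without prp-8, and 48 and 42 without prp-31, the clone with which only 5 and 2 genes reached 2-fold. With a mean FPKM of at least 1, 70 genes remained and each summary value stayed within its limit. For the shifts with the pseudocount, the listed zeros and the centring, the cause was not tested. The alternatives for the gfp and prp-8 against prp-6 counts, for the splicing group and for single genes were chosen after seeing the data. Depth is unknown, and 1 library per group leaves every difference without a replicate.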
